A study of Mus musculus with 12 samples.

Results

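A set of 10 genes of the germ line, known for silencing by promoter DNA methylation, were followed in RNA sequencing libraries of mouse embryonic stem cells: Dazl, Ddx4, Mael, Asz1, Tdrd1, Stk31, Sycp1, Sycp3, Hormad1 and Slc25a31. They were chosen by name and not by a threshold on their values, but with earlier results of these data known. All 10 symbols were found, ignoring case, among the 22416 genes of the table. Methylation itself was not measured, so the name of the group is background. All 10 had counts in each of the 12 libraries, and all 10 passed the filter on low counts, Tdrd1 only through its level in LIF.

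The cells were of 2 genotypes, wild type (WT, eIF2α +/+) and homozygous knock-in (KI, eIF2α A/A), in which alanine stands at the serine of the initiation factor subunit that stress kinases act on. Both were grown for 6 days in serum-free medium that held leukaemia inhibitory factor (LIF), either alone or with the MEK inhibitor PD0325901 and the GSK3 inhibitor CHIR99021 (LIF/2i). Every culture was washed with cycloheximide before lysis, and RNA came from the cleared lysate. Each of the 4 groups had 3 libraries. The labels name neither the line or clone behind a genotype nor whether replicates were separate cultures, so a clone and its genotype cannot be told apart, and a p-value speaks only of the spread among these libraries, part of which can be technical.

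In the embryo these genes acquire methylated promoters as the cells of the implanting conceptus remethylate their genome, and they reopen when primordial germ cells erase methylation. Embryonic stem cells in LIF/2i are known for low DNA methylation, and cells grown without the inhibitors for more. A separate layer of repression rests on the variant Polycomb complex that contains PCGF6, L3MBTL2, E2F6 and the E-box binding pair MGA and MAX, and on the lysine methyltransferases SETDB1 and EHMT2.

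The promoters of the 10 genes were read from RefSeq (GRCm38.p6), where all 10 were found, as the 250 bases before the most upstream annotated start. The median promoter of the group held 18 CpG dinucleotides with an observed to expected ratio of 0.781, against 10 and 0.558 over 16348 promoters. The E-box CACGTG (a palindrome, so both strands read alike) lay in 8 of the 10 windows, all but those of Dazl and Asz1, and in 6.8% of all promoters. The letters TCCCGC, the core of E2F sites, lay on either strand in 4 of the 10 windows (Ddx4, Mael, Sycp3 and Hormad1), and in 22.2% of all promoters. These 2 motifs do not overlap each other in the windows, and a match is a description of the letters only. The windows of the 5 genes below are shown because each changed in at least 1 comparison and its window could be printed. They run 5′ to 3′ on the gene's strand up to the start, less any bases within an annotated exon (GENCODE M21), with E-boxes and E2F cores in capitals.
Dazl: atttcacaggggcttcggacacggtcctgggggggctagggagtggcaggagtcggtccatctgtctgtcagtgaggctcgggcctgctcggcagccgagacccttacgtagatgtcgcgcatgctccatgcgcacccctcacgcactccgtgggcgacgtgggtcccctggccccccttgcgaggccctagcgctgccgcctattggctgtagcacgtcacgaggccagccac
Mael: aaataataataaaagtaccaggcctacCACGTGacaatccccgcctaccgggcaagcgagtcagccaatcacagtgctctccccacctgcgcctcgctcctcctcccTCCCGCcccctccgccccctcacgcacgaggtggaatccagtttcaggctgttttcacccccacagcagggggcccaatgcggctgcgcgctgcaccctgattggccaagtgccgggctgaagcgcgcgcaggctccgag
Tdrd1: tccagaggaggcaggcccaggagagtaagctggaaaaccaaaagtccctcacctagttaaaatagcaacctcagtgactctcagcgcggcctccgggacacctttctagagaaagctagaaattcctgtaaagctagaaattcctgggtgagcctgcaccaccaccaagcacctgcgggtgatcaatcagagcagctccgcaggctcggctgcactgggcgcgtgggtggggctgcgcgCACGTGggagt
Stk31: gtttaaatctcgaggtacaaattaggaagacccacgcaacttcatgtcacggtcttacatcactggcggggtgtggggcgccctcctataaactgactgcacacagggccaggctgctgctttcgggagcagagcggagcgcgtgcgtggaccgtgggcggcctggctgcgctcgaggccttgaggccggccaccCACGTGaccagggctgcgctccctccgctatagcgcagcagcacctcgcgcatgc
Hormad1: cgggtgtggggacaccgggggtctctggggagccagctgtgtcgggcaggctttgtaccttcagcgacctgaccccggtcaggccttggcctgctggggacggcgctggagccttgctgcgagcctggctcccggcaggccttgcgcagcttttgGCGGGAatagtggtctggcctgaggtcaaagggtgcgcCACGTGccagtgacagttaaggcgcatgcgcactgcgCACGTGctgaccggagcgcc

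The Dazl window lies at chr17:50293637-50293870 (- strand), and holds neither motif. That of Mael lies at chr1:166238748-166238994 (- strand), with the E-box starting 223 bases and the E2F core 143 bases before the start. The Tdrd1 window at chr19:56825959-56826208 (+ strand) has its E-box 11 bases before the start, but the counted Tdrd1 transcript begins at a later start, 56830712. In Stk31, at chr6:49395289-49395538 (+ strand), the E-box begins 55 bases upstream. Hormad1, at chr3:95559427-95559676 (+ strand), has E-boxes 57 and 20 bases and an E2F core 95 bases upstream, the latter as its reverse complement.

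Library totals ran from 2307219 to 9713857 counts. In WT LIF, the counts of replicates 1 and 3 agree within sampling noise (chi-square per degree of freedom 0.858 over 12373 genes; 2.61 to 40.2 for the other pairs of the same group) and they entered as 1 sample, so that WT in LIF had n = 2 and the fit 11 samples. Markers of pluripotent cells summed to 3340 to 3990 CPM (counts after scaling every library to one shared total) in LIF/2i and 2210 to 2670 in LIF, with none of the 7 at 0. Markers of 2-cell-like cells, which express some germline genes, summed to at most 2.52 CPM in any library. Fibroblast markers summed to 2.13 to 4.86 CPM in WT LIF/2i, 21.6 to 385 in WT LIF, 7.41 to 17 in KI LIF/2i and 84.8 to 127 in KI LIF. Lum was at 0 in 3 of the 4 groups and Col3a1 in WT LIF/2i. Primitive endoderm markers summed to 206 to 228 CPM in WT LIF and to 47.8 to 86.3 in the other 3 groups, and trophectoderm markers to 19.7 to 66.5 in 3 groups and 82.3 to 208 in WT LIF. KI LIF/2i replicate 1 stood apart from replicates 2 and 3 of its group, with 42.2 CPM over Y-linked genes against 1.87 and 1.51. KI LIF replicate 1 had 36 CPM against 2.09 and 3.81, while WT libraries had 46.2 to 276, so results in KI cells are given with and without KI LIF/2i replicate 1.

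Levels between genes were compared per kilobase of the counted coding sequence. Dazl had the highest mean of the 10 in every group, at 275 ± 18.7 CPM per kb in WT LIF/2i (SD, n = 3) and 51.1 ± 8.79 in WT LIF (SD, n = 2). The next gene was Stk31 at 32.1 ± 10.7 in WT LIF/2i, and Mael at 24.5 ± 4.32 in WT LIF. Tdrd1 was the lowest of the 10 in every group, from 0.0979 ± 0.0668 CPM per kb in WT LIF/2i to 1.14 ± 0.726 in KI LIF (SD, n = 3 each). Between these ends, Sycp3 (20.1 ± 7.08) and Stk31 (20 ± 2.53) in WT LIF did not differ beyond their spread, nor did Mael (3.21 ± 0.694) and Asz1 (3.2 ± 0.986) in WT LIF/2i. In KI cells, Dazl stood at 155 ± 54.1 CPM per kb in LIF/2i and 48 ± 23.9 in LIF, and Mael followed in LIF at 33.1 ± 3.3 (SD, n = 3). Those levels of Dazl and Mael in KI LIF did not differ beyond their spread: Dazl was at 75.5 CPM per kb in replicate 1 and at 36.4 and 32.19 in the others, and Mael at 29.8 to 36.4.

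The first comparison asked how the germline genes differ between media in WT cells. In LIF, 3 of the 10 were higher than in LIF/2i (Mael, Tdrd1 and Ddx4) and 2 were lower (Dazl and Hormad1), at an adjusted p under 0.05. Tdrd1 passed the filter on low counts only through LIF, so it could be tested only because it was high there. Over all 13229 genes tested, 13.0% were called, 6.30% higher and 6.65% lower. By the samples of the fit, with n = 2 in WT LIF, the 2 media did not overlap for 24.2% of all genes, higher in LIF. Another 24.5% did not overlap, lower in LIF. With n = 2 this is easier to reach than with 3 libraries. The median log2 fold change of the 10 genes was 0.77, against 0.01 over all genes. Called or not, the genes did not move as a block: 6 had a positive log2 fold change and 4 a negative one. In bulk libraries, a change in the number of cells with a transcript and a change in its amount per cell cannot be told apart.

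Dazl encodes an RNA-binding protein that promotes translation in germ cells (transcript ENSMUST00000010736, chr17:50279397-50293636, GRCm38). It was at 260.8, 249 and 227.7 CPM in the 3 WT LIF/2i libraries and at 43.26, 51.23 and 37.11 in the 3 WT LIF libraries. All LIF/2i libraries lay above all LIF libraries. The level fell by 2.43 on the log2 scale (SE 0.37, adjusted p = 0.00223, edgeR quasi-likelihood test), or 5.38-fold. Ddx4, the RNA helicase Vasa and a standard germ cell marker (chr13:112598335-112652475), went the other way, from 8.529, 12.39 and 14.59 CPM in LIF/2i to 34.54, 30.77 and 33.07 in LIF. These groups did not overlap, and the log2 fold change was 1.46 (SE 0.38, adjusted p = 0.0274).

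Mael and Tdrd1, genes of the piRNA pathway, which silences transposons in the male germ line, also rose. Mael, a component of the perinuclear nuage where piRNAs are made (chr1:166201385-166238744), had 3.159, 4.53 and 4.865 CPM in LIF/2i against 36, 27.89 and 35.71 in LIF. The lowest LIF library was above the highest LIF/2i library by a wide margin, and the log2 fold change was 2.94 (SE 0.57, adjusted p = 0.0065), or 7.68-fold. Tdrd1, a tudor scaffold protein that binds PIWI proteins (chr19:56830712-56870012), had only 1, 2 and 2 counts in LIF/2i, against 27, 24 and 25 in LIF. Scaled for depth, that was 0.1579, 0.2665 and 0.6081 CPM against 4.358, 3.638 and 3.882. The pooled counts gave a LIF to LIF/2i ratio of 13.3 (5.32 to 42.6, 95% interval for counting error only), and the fitted log2 fold change was 3.6 (SE 0.86, adjusted p = 0.018).

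Asz1 and Stk31 were not called. Asz1, an ankyrin-repeat nuage protein (chr6:18050964-18109057), had 3.317, 4.264 and 6.081 CPM in LIF/2i against 2.421, 1.971 and 2.484 in LIF, which did not overlap (log2 fold change -1, SE 0.63, adjusted p = 0.346). Stk31, a tudor-domain kinase of germ cells (chr6:49395604-49469501), had 125.7, 106.2 and 62.03 CPM in LIF/2i against 67.31, 55.48 and 65.52 in LIF. Replicate 3 in LIF/2i lay within the LIF libraries, and the log2 fold change was -0.69 (SE 0.36, adjusted p = 0.249).

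Among the chromosome genes of meiosis, Hormad1, an axis protein that recruits the DNA break machinery (chr3:95559678-95587592), fell. It had 19.9, 19.05 and 22.8 CPM in LIF/2i against 11.62, 10.31 and 9.006 in LIF, with no overlap (log2 fold change -0.99, SE 0.28, adjusted p = 0.0339). Of its coding 31-base words, 55.7% also occur in Gm15529 or Gm7167, and how reads with several matches were counted is not given in the sources used here, so its level is uncertain. Sycp1, the transverse filament of the synaptonemal complex (chr3:102818499-102936100), had 2.369, 3.597 and 4.257 CPM in LIF/2i against 12.11, 10 and 11.96 in LIF. All LIF libraries were above all LIF/2i libraries, and the change, 1.71 on the log2 scale (SE 0.76), did not pass (adjusted p = 0.169). By the samples of the fit, 24.2% of all genes lay higher in LIF without overlap. Sycp1-ps1 shares 15.4% of its words.

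Sycp3, a lateral element protein of that complex (chr10:88459569-88473235), had 8.687, 7.062 and 10.64 CPM in LIF/2i against 20.18, 11.52 and 18.17 in LIF (log2 fold change 0.82, SE 0.48, adjusted p = 0.302). These libraries did not overlap either, against the same 24.2% of all genes by the samples of the fit. Its coding exons overlap the antisense gene Chpt1, which shares 22.8% of its words, and the treatment of strand is not given in the sources used here, so reads of the 2 genes cannot be told apart where they overlap. Slc25a31, an ADP/ATP carrier of the mitochondria of male germ cells (chr3:40708855-40726096), had 1.895, 2.798 and 8.514 CPM in LIF/2i against 6.618, 7.124 and 6.211 in LIF. Replicate 3 in LIF/2i was above every LIF library, and the log2 fold change was 0.73 (SE 0.8, adjusted p = 0.622).

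**Figure D1:**
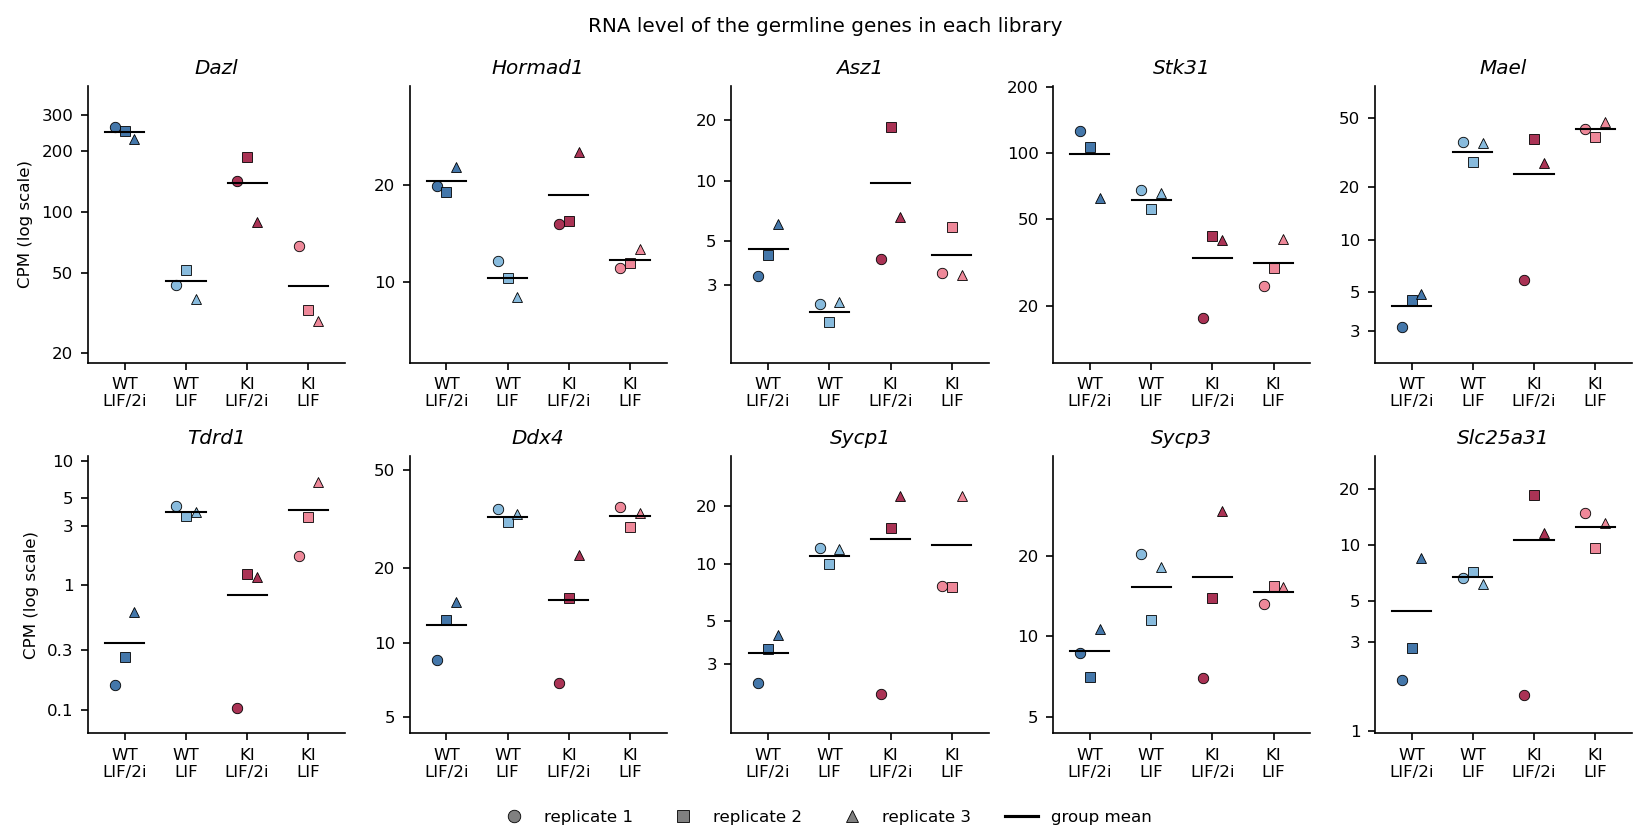
Level of each germline gene in each of the 12 libraries, in CPM on a log axis, with one panel per gene; the symbol gives the replicate number and the horizontal line the group mean (n = 3, and n = 2 for WT LIF, where replicates 1 and 3 count as 1 sample). Dazl lies at 227.7 to 260.8 CPM in WT LIF/2i and at 37.11 to 51.23 in WT LIF, while Mael goes from 3.159 to 4.865 up to 27.89 to 36.

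The calls for Dazl and Mael were kept in all 12 alternatives run, and those for the other 3 were lost on leaving out single libraries. Without WT LIF/2i replicate 1 or 2 the adjusted p became 0.108 and 0.0721 for Ddx4 and 0.0842 and 0.072 for Tdrd1. Without WT LIF/2i replicate 1, 2, 3 or WT LIF replicate 3 it became 0.0788, 0.0594, 0.0669 and 0.0506 for Hormad1. Over all genes, 381 were called higher and 465 lower without WT LIF/2i replicate 1, 440 and 615 without replicate 2, and 889 and 875 without replicate 3. With all libraries these were 834 and 880. Leaving out WT LIF replicate 2 left WT LIF with 1 sample, here and below. All 3 calls were lost there too, at log2 fold changes of 1.53 for Ddx4, 3.68 for Tdrd1 and -1 for Hormad1, against 1.46, 3.6 and -0.99. Markers of fibroblasts (3 of 4 tested higher), primitive endoderm (1 of 6 higher) and trophectoderm (2 of 5 higher and 1 lower) moved with the medium in WT cells, and their part in these results was not tested. Among the WT LIF libraries, fibroblast markers summed to 385 CPM in replicate 2 and to 25.3 and 21.6 in the others, while Mael was at 27.89 CPM in replicate 2 and at 36 and 35.71 in the others.

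The same question was asked in KI cells, where 1 of the 10 genes, Dazl, was called lower in LIF, and none was called higher by edgeR with no replicate block. Over all genes tested, 9.05% were called, 4.05% higher and 5.00% lower. At an unadjusted p under 0.05, 2 of the 10 genes were higher and 2 lower, and DESeq2 called 2 higher and 1 lower. Over all genes, 3134 of 13229 passed the unadjusted p, and DESeq2 called 760 higher and 844 lower. Libraries of the 2 media did not overlap for 13.3% of all genes, higher in LIF, and 13.9%, lower in LIF. The median log2 fold change of the 10 was -0.09, against -0.03 over all genes. The 2 higher by DESeq2 were Ddx4 and Tdrd1.

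Dazl was at 141.8, 185.3 and 88.79 CPM in the KI LIF/2i libraries and at 67.5, 32.54 and 28.78 in the KI LIF libraries. The groups did not overlap, and the level fell by 1.7 on the log2 scale (SE 0.32, adjusted p = 0.0068), or 3.24-fold. Ddx4 had 6.892, 15.19 and 22.49 CPM in LIF/2i against 35.31, 29.2 and 33.43 in LIF. The LIF libraries were all higher, by 1.15 on the log2 scale (SE 0.35, adjusted p = 0.0635). Tdrd1 had 1, 10 and 7 counts in LIF/2i and 5, 17 and 16 in LIF, or 0.1044, 1.245 and 1.175 against 1.731, 3.546 and 6.771 CPM. The pooled ratio was 4.95 (2.76 to 9.22, 95% interval for counting error only) and the log2 fold change 2.26 (SE 0.71, adjusted p = 0.0689). As in WT cells, no LIF/2i library was over the filter level for Tdrd1.

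Same-numbered KI libraries deviated together across media in replicates 1 and 2, and replicate 3 was little closer to its own number than to another. With the replicate number as a block within KI cells both genes passed: the log2 fold change was 1.26 for Ddx4 (adjusted p = 0.0213) and 2.27 for Tdrd1 (adjusted p = 0.0158). This block was chosen after seeing the data, and with it 830 of all genes were called higher and 968 lower. Over their 12 alternatives, the adjusted p ranged from 0.0186 to 0.167 for Ddx4 and from 0.0158 to 0.263 for Tdrd1. Leaving out KI LIF/2i replicate 3 brought Ddx4 to an adjusted p of 0.021, and leaving out KI LIF replicate 1 brought Tdrd1 to 0.047. Fibroblast markers summed to 7.41 to 17 CPM in the KI LIF/2i and 84.8 to 127 in the KI LIF libraries (2 of 4 tested called higher). Trophectoderm markers summed to 19.7 to 50.5 and 54.6 to 66.5 CPM (1 of 5, Krt8, called higher), and the part of either list in these results was not tested.

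Mael, at 5.847, 37.84 and 27.36 CPM in KI LIF/2i and 43.27, 38.8 and 47.4 in KI LIF, was not called (log2 fold change 0.87, SE 0.47, adjusted p = 0.293). KI LIF/2i replicate 1 was near the WT LIF/2i level, and all 3 LIF/2i libraries were below the lowest KI LIF library. Hormad1 had 15.14, 15.44 and 25.34 CPM in LIF/2i against 11.08, 11.47 and 12.7 in LIF (log2 fold change -0.66, SE 0.25, adjusted p = 0.122). Asz1 had 4.072, 18.55 and 6.546 CPM in LIF/2i against 3.461, 5.84 and 3.385 in LIF (log2 fold change -1.16, SE 0.53, adjusted p = 0.213). The Hormad1 libraries did not overlap between media, and those of Asz1 did.

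The other 4 genes had log2 fold changes between -0.18 and 0.24 with overlapping libraries. Sycp1 had 2.088, 15.31 and 22.66 CPM in KI LIF/2i and 7.615, 7.509 and 22.43 in KI LIF. Sycp3 had 6.996, 13.94 and 29.2 in LIF/2i and 13.15, 15.44 and 15.23 in LIF. For both, the spread within LIF/2i was wider than the distance between the media. Chpt1, which overlaps Sycp3, fell in KI cells (log2 fold change -1.16, SE 0.19, adjusted p = 0.00326). Stk31 had 17.65, 41.58 and 39.78 CPM in LIF/2i against 24.58, 29.62 and 40.2 in LIF, and Slc25a31 had 1.566, 18.67 and 11.58 in LIF/2i and 14.88, 9.595 and 13.12 in LIF.

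Without KI LIF/2i replicate 1, Dazl was still the one gene of the 10 called between media in KI cells, by -1.68 on the log2 scale (adjusted p = 0.0133), where edgeR called 414 of all genes higher and 593 lower. KI LIF replicate 1, with 36 CPM over Y-linked genes, stayed in this fit, so the media then held unlike sets of libraries. The part of this in the values was not tested. The log2 fold change of Mael was then 0.39 (adjusted p = 0.344), that of Ddx4 0.8 (0.091) and that of Tdrd1 1.67 (0.115). Slc25a31 turned to -0.29 (adjusted p = 0.755), Sycp1 stood at -0.64, Sycp3 at -0.55, Stk31 at -0.38, Hormad1 at -0.79 and Asz1 at -1.53, with adjusted p from 0.071 to 0.441.

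The series addresses the role of eIF2α phosphorylation, and the next comparison set KI against WT cells in LIF/2i. Of the 10 genes, Mael was higher in KI cells and Stk31 lower, where 2.21% of all genes were called, 0.975% higher and 1.24% lower. Mael, at 5.847, 37.84 and 27.36 CPM in KI against 3.159, 4.53 and 4.865 in WT, differed by 2.51 on the log2 scale (SE 0.53, adjusted p = 0.0377). Stk31, at 17.65, 41.58 and 39.78 CPM in KI against 125.7, 106.2 and 62.03 in WT, differed by -1.58 (SE 0.33, adjusted p = 0.0354), or 2.99-fold. The KI and WT libraries did not overlap for either gene, nor for 11.7% of all genes, higher in KI, and 11.1%, lower.

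The remaining 8 genes were not called. Dazl was lower in every KI library than in every WT library (log2 fold change -0.83, SE 0.3, adjusted p = 0.151). Sycp1 (1.98, SE 0.71, adjusted p = 0.149), Slc25a31 (1.36, SE 0.72, adjusted p = 0.308), Tdrd1 (1.36, SE 0.92, adjusted p = 0.425), Asz1 (1.12, SE 0.52, adjusted p = 0.243) and Sycp3 (0.93, SE 0.43, adjusted p = 0.251) had positive log2 fold changes with overlapping libraries. Ddx4 (0.33, SE 0.36) and Hormad1 (-0.14, SE 0.23) were nearest to 0. The median log2 fold change of the 10 was 1.03, against 0.02 over all genes.

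KI LIF/2i replicate 1 was the lowest library of its group for 9 of the 10 genes, all but Dazl. It was the lowest for 36.6% of all genes tested. The same library was the lowest for 10 of 13 other piRNA pathway and tudor genes, 14 of 17 other meiotic chromosome genes and 12 of 13 other germ cell genes. WT LIF/2i replicate 1 was likewise the lowest of its group for 6 of the 10 genes, and for 28.9% of all genes tested. In the same lists it was the lowest for 10 of 13, 13 of 17 and 9 of 13 genes. Its Y-linked genes summed to 276 CPM, against 46.2 and 255 in the others of its group. KI LIF/2i replicate 1 is also the library of its group with 42.2 CPM over Y-linked genes, and the part of this difference in the result was not tested. Without it, 4 of the 10 genes were higher in KI than in WT cells: Mael (log2 fold change 2.96, adjusted p = 0.000125), Sycp1 (2.48, adjusted p = 0.0117), Slc25a31 (1.89, adjusted p = 0.0396) and Sycp3 (1.28, adjusted p = 0.0421). Over all genes, 472 were called higher and 524 lower without it, against 129 and 164 with it. The library left out was the lowest of its group for each of these 4 genes, so leaving it out had to raise their KI mean. The added calls are therefore no separate result. With all libraries, the call for Mael was lost on leaving out WT LIF/2i replicate 1, 2 or 3 or KI LIF/2i replicate 2 or 3 (adjusted p 0.135, 0.0881, 0.0869, 0.1 and 0.111) and with no filter on low counts (0.0608). The call for Stk31 was lost without WT LIF/2i replicate 1 or 2 or KI LIF/2i replicate 2 or 3 (adjusted p 0.119, 0.0784, 0.0527 and 0.082).

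**Figure D2:**
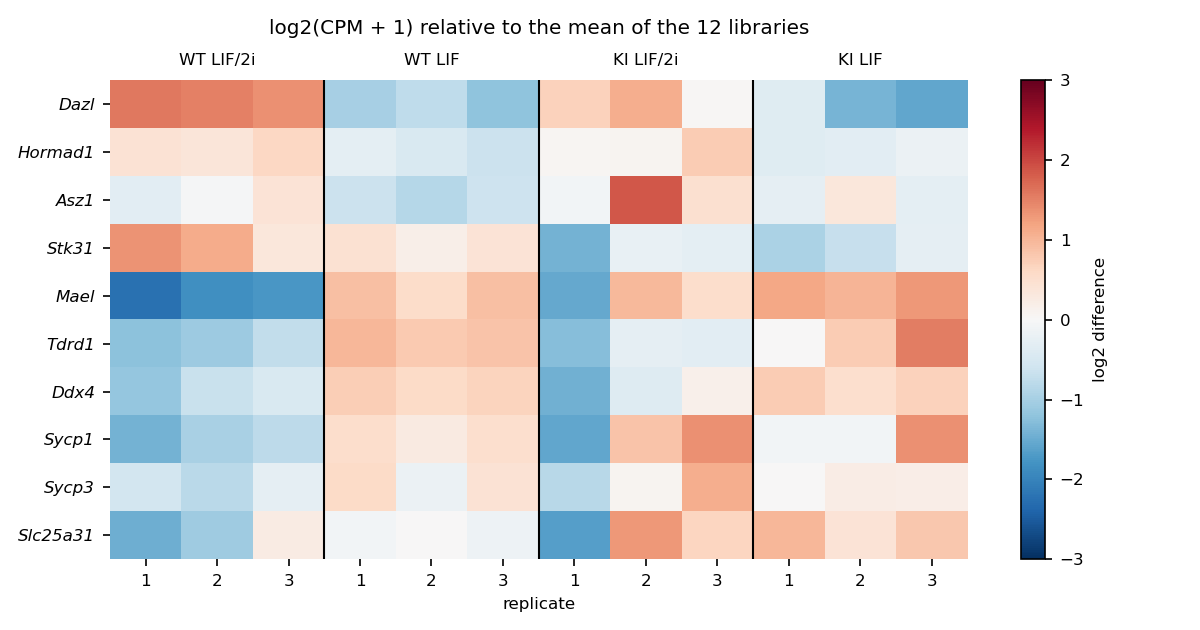
Heat map of log2(CPM + 1) of the 10 genes in the 12 libraries, each relative to the gene's mean over the libraries; columns are libraries by group and replicate number, and colour gives the log2 difference. KI LIF/2i replicate 1 is the lowest of its group in 9 of 10 genes, and Mael there (5.847 CPM) is closer to the WT LIF/2i libraries than to KI replicates 2 and 3 (37.84 and 27.36 CPM).

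In LIF, none of the 10 genes was called between KI and WT cells by edgeR, where 0.144% of all genes were. At an unadjusted p under 0.05, 0 were higher and 1 was lower, and DESeq2 called 0. Over all genes, 0.0151% were called higher and 0.129% lower, 1418 of 13229 passed the unadjusted p, and DESeq2 called 83 higher and 120 lower. The gene lower at the unadjusted p was Stk31, at 24.58, 29.62 and 40.2 CPM in KI and 67.31, 55.48 and 65.52 in WT libraries (log2 fold change -0.96, SE 0.37, adjusted p = 0.368). All KI libraries were lower than all WT libraries, as they were in LIF/2i. Mael (0.43, SE 0.52) and Asz1 (0.97, SE 0.65) were higher in every KI library than in every WT library without passing (adjusted p = 0.834 and 0.641), and so was Slc25a31 (0.88, SE 0.79, adjusted p = 0.757). Over all genes, by the samples of the fit (n = 2 in WT LIF), 15.9% lay higher in KI without overlap and 15.9% lower. By those samples Hormad1 also lay higher in KI without overlap, though its single libraries overlapped. Dazl (-0.09, SE 0.35), Ddx4 (0.01, SE 0.38), Tdrd1 (0.02, SE 0.7), Sycp3 (-0.07, SE 0.48), Sycp1 (0.15, SE 0.74) and Hormad1 (0.19, SE 0.28) had log2 fold changes near 0.

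**Figure D3:**
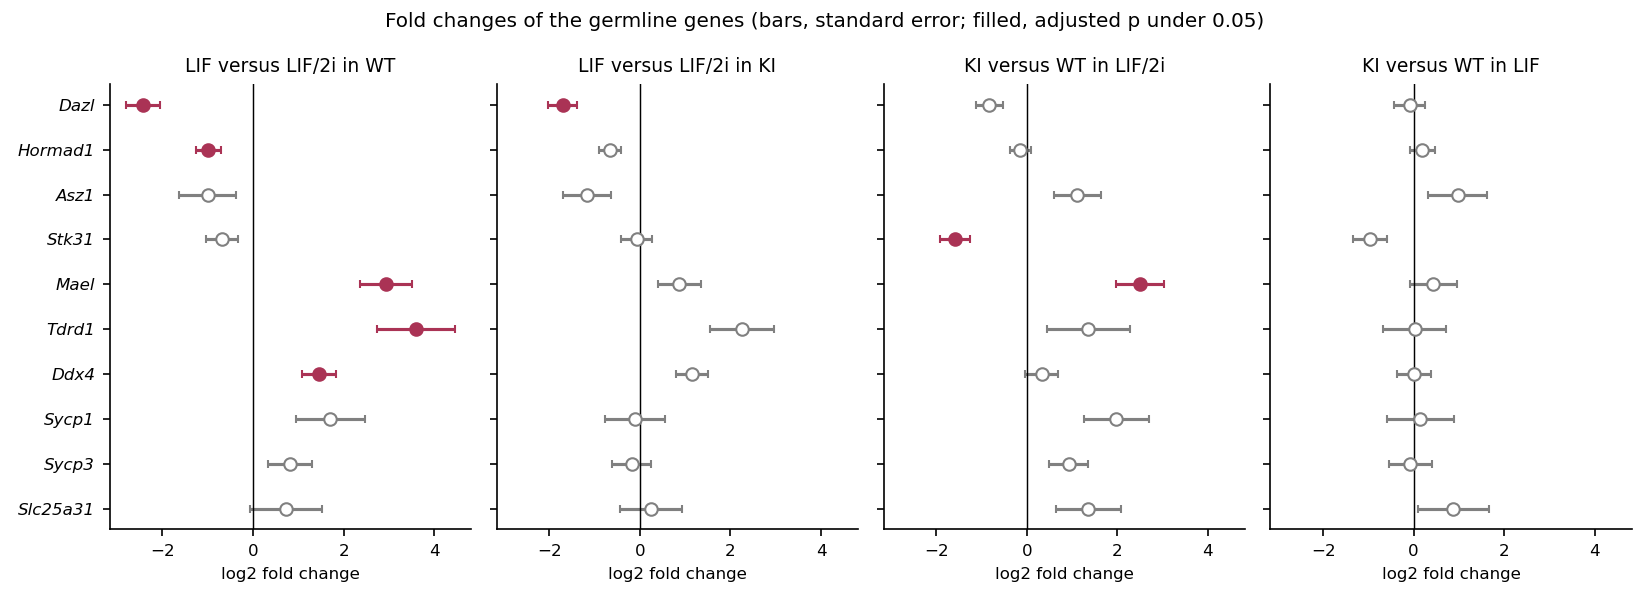
Log2 fold changes of the 10 genes in the 4 comparisons, with bars of 1 standard error; filled points passed an adjusted p of 0.05 in edgeR's quasi-likelihood test over all 13229 genes. Dazl is at -2.43 in WT and -1.7 in KI cells for LIF against LIF/2i, and Mael and Stk31 are the filled points of KI against WT in LIF/2i, at 2.51 and -1.58.

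The difference of the media effect between genotypes, the interaction, was called by edgeR for 0 of the 10 genes and for 0 of all genes (791 at an unadjusted p under 0.05; 8 higher and 13 lower by DESeq2). At an unadjusted p under 0.05, 0 of the 10 were higher and 1 was lower, and DESeq2 called 0 of the 10. That gene was Mael, with an interaction of -2.07 on the log2 scale (SE 0.73, adjusted p = 0.774). Without KI LIF/2i replicate 1, it was -2.54 (adjusted p = 0.0352), where 1 of all genes was called higher and 3 lower. That library was the lowest of its group for Mael, and KI LIF replicate 1 stayed in the fit. For Dazl the interaction was 0.73 (SE 0.46, adjusted p = 0.901), for Tdrd1 -1.34 (SE 1.14, adjusted p = 0.915) and for Ddx4 -0.31 (SE 0.52, adjusted p = 0.967).

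The genes that write and erase DNA methylation were read beside the germline genes. Of 11 such genes, all tested, 2 rose and 1 fell in LIF in WT cells, and 3 rose and 2 fell in KI cells, where 13.0% and 9.05% of all genes were called. Dnmt3a, a de novo methyltransferase, was at 71.08, 53.96 and 121 CPM in WT LIF/2i and 205.6, 204.9 and 191 in WT LIF (log2 fold change 1.31, SE 0.31, adjusted p = 0.0181). In KI cells it was at 114.3, 119.9 and 86.27 CPM in LIF/2i and at 350.6, 562.1 and 671.6 in LIF (2.3, SE 0.29, adjusted p = 0.000925). No library of one medium reached those of the other in either genotype.

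Dnmt3b, the other de novo enzyme, rose in WT (log2 fold change 1.06, SE 0.22, adjusted p = 0.00908) and in KI cells (1.47, SE 0.2, adjusted p = 0.00137). Dnmt3l, their catalytically inactive partner, was called in KI cells (2.2, SE 0.62, adjusted p = 0.0454) and not in WT cells (2.1, SE 0.66, adjusted p = 0.0564), with 47.54, 25.05 and 247.5 CPM in the WT LIF/2i libraries. Its KI call was lost on leaving out any one KI library, with no filter and with the block within KI cells (adjusted p at most 0.171). Prdm14, a repressor of the de novo enzymes, fell in WT (-2.33, SE 0.29, adjusted p = 0.000854) and in KI cells (-2.22, SE 0.26, adjusted p = 0.000642). Uhrf1, which guides the maintenance enzyme to replicating DNA, fell in KI cells (-0.83, SE 0.13, adjusted p = 0.00325). Dnmt1, that enzyme, was at 863.6 to 963 CPM in WT LIF/2i and 674.7 to 786.1 in WT LIF (-0.33, SE 0.15, adjusted p = 0.169). In KI cells it was at 676.7 to 888.7 and 677.9 to 812.4 CPM (-0.09, SE 0.13, adjusted p = 0.761). Tet2, an eraser, was not called by edgeR in WT (-0.87, SE 0.33, adjusted p = 0.108) or KI cells (-0.89, SE 0.29, adjusted p = 0.081). DESeq2 called Tet2 and Zfp57 lower in LIF in KI cells. By edgeR, 0 of the 11 were called between genotypes in LIF/2i (2 higher and 0 lower at an unadjusted p under 0.05; 0 by DESeq2), 0 in LIF (2 higher and 1 lower unadjusted) and 0 in the interaction (1 higher and 2 lower unadjusted; 0 by DESeq2). In LIF, DESeq2 called Dnmt3a higher in KI cells, where edgeR put the log2 fold change at 1.39 (SE 0.33, adjusted p = 0.145). The calls of Prdm14 in both genotypes and of Dnmt3a, Dnmt3b and Uhrf1 in KI cells held in all 12 alternatives, while in WT cells Dnmt3b lost its call when WT LIF replicate 2 was left out (adjusted p = 0.0984), and Dnmt3a without that library or WT LIF/2i replicate 1 or 2 (at most 0.107).

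**Figure D4:**
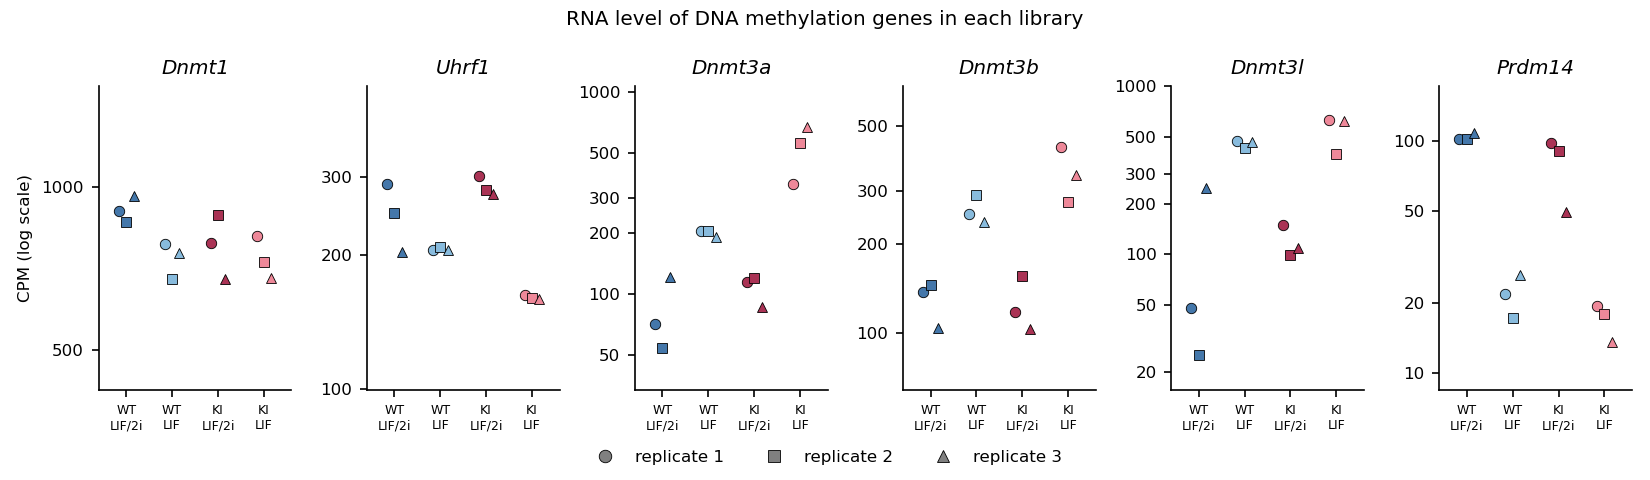
Level of 6 genes of the DNA methylation machinery in the 12 libraries, in CPM on a log axis; the symbol gives the replicate number. In WT cells Prdm14 lies at 102 to 108.2 CPM in LIF/2i and 17.28 to 26.55 in LIF, and in KI cells Dnmt3a lies at 86.27 to 119.9 in LIF/2i and 350.6 to 671.6 in LIF.

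Of 22 genes for the repressor complexes on germline promoters, all tested, 0 rose and 2 fell in LIF in each genotype. With 13.0% of all genes called in WT and 9.05% in KI cells, the list stood no higher than the background in WT cells and near it in KI cells. The 2 were Wdr5, a subunit shared by several chromatin complexes (log2 fold change -0.76, SE 0.15, adjusted p = 0.00802 in WT; -0.73, SE 0.14, adjusted p = 0.00661 in KI), and Hdac2, a histone deacetylase (-0.61, SE 0.17, adjusted p = 0.0366 in WT; -0.56, SE 0.15, adjusted p = 0.0421 in KI). E2f6, Mga, Max, L3mbtl2, Pcgf6, Setdb1 and Ehmt2 were among the 20 not called. Hdac1, a related deacetylase, and L3mbtl2 differed by tool: DESeq2 called Hdac1 lower in LIF in KI cells (edgeR adjusted p = 0.0678) and L3mbtl2 higher in KI cells in LIF/2i (edgeR adjusted p = 0.0823). At an unadjusted p under 0.05, 1 of the 22 was higher in LIF in each genotype, and DESeq2 called 0 higher. Between genotypes edgeR called 0 of the 22 in LIF/2i (4 higher and 1 lower unadjusted) and 0 in LIF (0 unadjusted, 0 by DESeq2). Wdr5 kept its call in KI cells in all 12 alternatives and in WT cells in all but the one without WT LIF replicate 2 (adjusted p = 0.106), whereas Hdac2 lost its call in 5 of 12 alternatives in WT cells and in 6 of 12 in KI cells.

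By the rule for likeness, the 5 genes outside the list whose log2 CPM followed that of Dazl most closely over the 11 samples were Akap1 (Pearson r 0.974), Abhd2 (0.969), Lrig1 (0.968), Sirpa (0.966) and Hoxc13 (0.965). The samples share libraries and depth between genes, and these coefficients are a description.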

How the data were processed

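RNA of 12 libraries was sequenced, and the authors deposited whole-number counts for each gene, not normalized. Per the file headers, a count covers the coding sequence of 1 transcript per gene. Bowtie 1.3.0, UMI-tools 1.0.1 and cutadapt 3.4 are named in the submitters' processing notes, with no roles. Not given in the sources used here are the build, the counter, and how strand and multiply matching reads were handled. Transcript identifiers were matched to GENCODE M21 (GRCm38), where 22155 of 22416 and all 10 germline genes were found, and gene coordinates are from there. Promoters are from RefSeq (GRCm38.p6).

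Replicates of a group were compared by chi-square over genes with at least 20 counts, and WT LIF replicates 1 and 3 were merged to their mean. Genes were kept with filterByExpr at a minimum count of 10 (1.59 CPM), which left 13229. After TMM scaling, edgeR 4.0.16 (R 4.3.3) fitted a robust quasi-likelihood model of the 4 group means to the 11 samples, with a biological coefficient of variation of 0.234. Each contrast had a two-sided F test, Benjamini-Hochberg adjusted over all genes tested, and genes were called at 0.05. Standard errors come from the F statistic. For genes near 0 counts, such as Tdrd1, the fitted fold change depends on the prior count. The floor of a library was set at 3 counts (0.313 to 1.27 CPM). Levels and Y-linked sums are TMM-scaled CPM.

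The members and gene lists were chosen with earlier results of these data known. All 10 germline genes were named in every comparison. Of each other list (other piRNA pathway and tudor genes, other meiotic chromosome genes, other germ cell genes, DNA methylation genes, germline gene repressors, primordial germ cell, pluripotent, primitive endoderm, trophectoderm, fibroblast and 2-cell-like markers), the called genes were named, up to 6 per comparison. Genes named for DESeq2's calls were chosen after their values were seen. Likeness was taken for the germline gene with the highest mean CPM.

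Alternatives were DESeq2 1.42.0, DESeq2's size factors in edgeR, no filter, 12 libraries counted separately, a replicate block across 12 libraries, and leaving out each library. The labels give the groups the same replicate numbers. Deviations from the group means correlated at 0.525, 0.406 and 0.245 between same-numbered KI libraries across media (highest with another number -0.226, 0.0801 and 0.233). No label says that the numbers pair KI samples, and the fit as described did not pair them. The block within KI cells was run as an alternative because of these values. The other comparisons had at least 1 pair under 0.1. In a test on simulated data for LIF against LIF/2i in WT cells, 34% of 50 genes changed 2-fold and 80% of 50 changed 4-fold were called among 12976 genes, and 5.45% of the calls were false.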

Additional observations from a re-analysis of the deposited data

How the results depend on the processing

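The calls of Dazl in both genotypes and of Mael in WT cells for LIF against LIF/2i kept their direction and their side of the threshold in all 12 alternatives run. The counts of called germline genes moved mainly with single libraries, given here as the lowest and highest over libraries left out. In WT cells, LIF against LIF/2i gave 1 to 3 higher and 1 to 2 lower, and without WT LIF replicates 1 and 3 together it gave 1 higher and 1 lower. In KI cells it gave 0 to 1 higher (1 without KI LIF/2i replicate 3 or KI LIF replicate 1). KI against WT in LIF/2i gave 0 to 4 higher and 0 to 1 lower, and the interaction 0 to 1 lower. A left-out library also lowers the number of samples. Without WT LIF replicate 2, or without WT LIF replicates 1 and 3 together, WT LIF held 1 sample, so a call lost there cannot be laid to the gene alone.

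In KI cells, 2 germline genes (Ddx4 and Tdrd1) were higher in LIF with DESeq2, with 12 libraries counted separately, with the replicate block over 12 libraries and with the block within KI, against 0 in the fit as described and 0 to 1 with libraries left out. With no filter, which tests more genes, KI against WT in LIF/2i gave 0 higher. Besides these, the block over 12 libraries changed 1 call among the 10 genes, that of Sycp1 in WT cells (1.83 on the log2 scale, adjusted p = 0.04). The block within KI cells was added after seeing the data, and the numbers did not pair samples in the other comparisons.

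Values near 0 changed sign, none of them called. In KI cells, LIF against LIF/2i ranged over libraries left out from -0.8 to 0.5 for Sycp1, -0.55 to 0.49 for Sycp3, -0.38 to 0.15 for Stk31 and -0.29 to 0.98 for Slc25a31 (log2), and with the replicate block within KI it was 0.11 for Sycp1 and 0.02 for Sycp3. KI against WT in LIF/2i ranged from -0.1 to 0.66 for Ddx4. In LIF it ranged from -0.57 to 0.11 for Dazl, -0.05 to 0.08 for Ddx4, -0.54 to 0.42 for Sycp1, -0.39 to 0.34 for Sycp3 and -0.5 to 0.36 for Tdrd1. With no filter, 12 libraries and the replicate block it was -0.01, 0 and -0.01 for Ddx4 and -0.01, -0.01 and -0.18 for Tdrd1, and with the block -0.11 for Sycp1. The interaction ranged from -0.66 to 0.1 for Ddx4, -0.53 to 0.75 for Asz1 (0.01 without WT LIF replicates 1 and 3) and -1.27 to 0.27 for Slc25a31. The cause was not tested. Depth limits Tdrd1 most, which had 1 to 10 counts in the LIF/2i libraries.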

Other observations

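Other genes of the germ line that were not in the group of 10 were read in the same comparisons. Of all genes, 13.0% were called between media in WT and 9.05% in KI cells, and 2.21% between genotypes in LIF/2i. Of 13 tested genes of the piRNA pathway and its tudor proteins (15 listed), 3 rose and 2 fell in LIF in WT cells. Piwil2, a PIWI protein that binds piRNAs, rose from 18 ± 4.71 CPM (SD, n = 3) to 43.8 ± 4.68 (SD, n = 2) in WT cells (log2 fold change 1.3, SE 0.31, adjusted p = 0.0179) and from 24.8 ± 7.92 to 71.6 ± 20.3 (SD, n = 3 each) in KI cells (1.53, SE 0.28, adjusted p = 0.00632). Tdrd5 (log2 fold change 2.1, adjusted p = 0.0272) and Tdrkh (1.44, adjusted p = 0.0277), both tudor proteins, rose in WT cells. Fkbp6, a co-chaperone of piRNA loading, fell in WT (-0.91, adjusted p = 0.0204) and KI cells (-0.93, adjusted p = 0.0151), and the tudor helicase Tdrd12 fell in WT cells (-1.37, adjusted p = 0.0344). Piwil2 in KI cells kept its call in all 12 alternatives, and the other calls in this list were lost in 3 to 5 of 12. The losses in WT cells came with WT LIF/2i replicate 1, 2 or 3 or WT LIF replicate 2 left out (adjusted p at most 0.256), with WT LIF replicates 1 and 3 left out together or, for Tdrd12, with no filter, and that of Fkbp6 in KI cells with KI LIF/2i replicate 2 or KI LIF replicate 2 or 3 left out (at most 0.0742). The median log2 fold change of the list was 0.18 in WT and -0.15 in KI cells, against 0.01 and -0.03 over all genes.

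Among 17 tested meiotic chromosome genes (18 listed), edgeR called Tex11 (log2 fold change 1.9, adjusted p = 0.0135) and Zcwpw1 (1.8, adjusted p = 0.0267) higher in LIF in WT cells and Smc1b, the meiotic cohesin subunit, higher in LIF in KI cells (0.79, adjusted p = 0.0198). Between media, 13 of the 17 had a positive log2 fold change in WT and 14 in KI cells. The medians were 1.17 and 0.57, against 0.01 and -0.03 over all genes. None of the 17 was called lower in either genotype; at an unadjusted p under 0.05 there was 1 in WT and 0 in KI cells, and 0 by DESeq2 in both. Syce1, a central element protein of the synaptonemal complex, was higher in KI than in WT cells in LIF/2i, at 26.2 ± 11.6 against 4.48 ± 1.92 CPM (SD, n = 3 each; log2 fold change 2.6, SE 0.49, adjusted p = 0.0214). These 4 calls were each lost in 3 or 4 alternatives, all with libraries left out. For Tex11 and Zcwpw1 these were WT LIF/2i replicate 1, 2 or 3 and WT LIF replicates (adjusted p at most 0.181), for Smc1b KI LIF/2i replicate 1 or 3 and KI LIF replicate 3 (at most 0.0896), and for Syce1 WT LIF/2i replicate 1 or 2 and KI LIF/2i replicate 2 or 3 (at most 0.103).

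Of 13 other germ cell genes, all tested, Ddx25, a helicase of spermatids, rose in LIF from 1.52 ± 0.284 to 12 ± 0.258 CPM in WT cells (SD, n = 3 and n = 2; log2 fold change 3, adjusted p = 0.00193, kept in all 12 alternatives). It rose in KI cells too (1.65, adjusted p = 0.0182; at most 0.0678 without KI LIF replicate 2 or 3). Stra8, the retinoic acid target at meiotic entry (2.14, adjusted p = 0.0183), and Brdt, a testis bromodomain protein (1.88, adjusted p = 0.0102), rose in WT cells, and Boll, a relative of Dazl (-2.4, adjusted p = 0.0126), and Tex101 (-1.92, adjusted p = 0.0377) fell. Each of these 4 lost its call without WT LIF replicate 2 (adjusted p at most 0.29 over all losses). Tex101, a germ cell surface protein, was lower in KI than in WT cells in LIF/2i, at 0.584 ± 0.34 against 8.25 ± 2.94 CPM (SD, n = 3 each; log2 fold change -3.8, SE 0.54, adjusted p = 0.00597), and this call was kept in all 11 alternatives. The median log2 fold change of the list between media was -0.1 in WT and -0.03 in KI cells, against 0.01 and -0.03 over all genes.

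Of 7 primordial germ cell markers, all tested, edgeR called 0 higher and 2 lower in LIF in WT cells, and 0 and 1 in KI cells. In each genotype 3 had a positive log2 fold change, and the medians were -0.1 and -0.57, against 0.01 and -0.03 over all genes. At an unadjusted p under 0.05, 2 were higher in WT cells, Tfap2c (0.91, SE 0.33) and Itgb3 (1.4, SE 0.59), and 3 lower. Kit, a receptor of migrating germ cells, fell in LIF in WT (log2 fold change -0.97, adjusted p = 0.00786) and KI cells (-0.92, adjusted p = 0.00677). Nanos3 fell in WT cells (-2.86, adjusted p = 0.00855), and Prdm1 was lower in KI than in WT cells in LIF/2i (-1.75, adjusted p = 0.0478). The WT calls of Kit and Nanos3 were lost without WT LIF replicate 2 (adjusted p = 0.102 and 0.114), and that of Prdm1 without WT LIF/2i replicate 1, 2 or 3 or KI LIF/2i replicate 3 (at most 0.135).

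Of the lists that mark cell states and other cell types, 4 of 7 pluripotent cell markers fell in LIF in each genotype. Tfcp2l1, a transcription factor of naive cells, fell in WT (log2 fold change -1.98, adjusted p = 0.00114) and KI cells (-2.41, adjusted p = 0.000317), and Nanog in WT (-0.66, adjusted p = 0.0164) and KI cells (-1.32, adjusted p = 0.000426). Zfp42 fell in both (-0.63, adjusted p = 0.0447 in WT; -0.78, adjusted p = 0.0146 in KI), Klf4 in WT (-0.93, adjusted p = 0.00642) and Esrrb in KI cells (-0.67, adjusted p = 0.0175). Pou5f1 and Sox2 were not called in any comparison.

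Lama1, a laminin chain of primitive endoderm, rose in LIF in WT cells (1.49, adjusted p = 0.0037) and was lower in KI than in WT cells in LIF (-1.79, adjusted p = 0.0222). The keratins of trophectoderm, Krt18 (4.11, adjusted p = 0.00227) and Krt8 (4.23, adjusted p = 0.00236), rose in LIF in WT cells, and Krt8 in KI cells (1.99, adjusted p = 0.0481). Tfap2a fell in LIF in WT cells (-3.22, adjusted p = 0.00426) and was lower in KI than in WT cells in LIF/2i (-1.9, adjusted p = 0.0479). The collagen genes Col1a1 and Col1a2 rose in LIF in WT (5.55 and 8.16, adjusted p = 0.00236 and 0.00287) and KI cells (2.82 and 5.26, adjusted p = 0.0253 and 0.0118). Col3a1, at 0 counts in WT LIF/2i, was called higher in WT LIF (adjusted p = 0.0284), and its fitted fold change is no bound.

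The calls of Tfcp2l1 in both genotypes, of Nanog in KI cells and of Lama1, Krt18, Krt8, Col1a1 and Col1a2 between media in WT cells held in all 12 alternatives. Klf4, Nanog, Zfp42, Tfap2a and Col3a1 lost theirs between media in WT cells without WT LIF replicate 2 (adjusted p at most 0.321 over all losses). In KI cells, Esrrb, Krt8 and Col1a1 lost theirs without KI LIF/2i replicate 1 or KI LIF replicate 2 or 3, Zfp42 without KI LIF replicate 2 or 3, and Col1a2 with no filter or the block within KI (at most 0.124). Krt8 and Col1a1 also lost theirs in other settings, among them no filter. Of the 12 alternatives, Krt8 lost its call in 8, Col1a1 in 7 and Esrrb in 3. Between genotypes, Lama1 lost its call in LIF without WT LIF replicate 2 or KI LIF replicate 2 or 3, and Tfap2a in LIF/2i without WT LIF/2i replicate 1 or 2 or KI LIF/2i replicate 2 or 3 (at most 0.177 each). No gene of the 2-cell-like list passed the filter on low counts.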
